A study of Oryza sativa Japonica Group with 6 samples.

Results

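The genes described here encode ribosomal proteins and the factors that start and extend protein synthesis in rice. They were chosen by name: a gene was taken if its symbol or a synonym, after a leading Os was dropped, read RPS or RPL with a number, eIF with a number, eEF, EF-1 or EF1. The rule matched 78 genes, of which 26 encoded in the chloroplast were left out by the rule and 13 encoded in the mitochondrion had no probe set of their own. Of the 39 nuclear genes, 7 had no probe set paired with them alone. The other 32 are the members, out of 17905 genes that at least 1 probe set read alone, and were read by 52 probe sets. They comprise 12 genes of the small ribosomal subunit, 13 of the large subunit, 5 of initiation factors and 2 of elongation factors. Few rice genes carry such a name in the tables used, so the members are a sample of the translation machinery and not all of it.

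The study compared synergid with antipodal cells of the embryo sac, on 3 Affymetrix rice arrays of each. Both cell types came from wild-type plants of Oryza sativa ssp. japonica, cultivar Katy, grown in a greenhouse, and were dissected without enzymes from florets at anthesis. Synergids are the pair of cells beside the egg cell that receive the pollen tube, and antipodals lie at the far, chalazal end of the embryo sac. The labels call the arrays biological replicates but name no separate plants, so a p-value here reflects only how far these arrays vary, which may be partly technical.

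A ribosome has a small subunit that reads the messenger RNA and a large subunit that joins amino acids, each built of ribosomal RNA and many small proteins. The cap-binding complex eIF4F, which holds eIF4E, eIF4G and eIF4A, brings the small subunit to a messenger RNA, with eIF3 bound to that subunit. The elongation factor EF-1-alpha then carries each loaded transfer RNA to the ribosome. Synergids secrete attractants and carry a thickened wall, and antipodals of grasses are often described as metabolically active cells.

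Before the results, some properties of the arrays matter. Signals are MAS5 intensities, a summary of the probes of a probe set on 1 array, deposited on a common scale with a trimmed mean of 500.1 on each array. Antipodal array 2 stood apart from the rest: its median signal over non-control probe sets was 170.5, against 46.6 to 67.2 on the other arrays, and its log2 values correlated at 0.734 to 0.783 with theirs over the tested probe sets, so values without it are given where a result rests on it. Across the 32 members it correlated at 0.917 to 0.944 with the other arrays, whose correlations with each other were 0.962 to 0.990. The names fixed as markers of synergids, egg cells and central cells matched no gene with a probe set of its own. The labelled cell types could thus not be checked with them. Of 6 markers of the ovule tissue around the embryo sac, OsMADS13, OsMADS21, OsMADS29 and OsMADS3 had synergid signals above every antipodal signal, with log2 fold changes from 1.18 to 1.82 and unadjusted p under 0.05. That is 66.7% of the list on either measure, against 13.4% of all tested probe sets without overlap and 8.30% with such a p. The summed signal of the 6, most of it from ANT at a log2 fold change of 0.015, was 38328 to 47144 on synergid arrays and 31708 to 41474 on antipodal arrays, with none at 0, and 0 of the 6 were called (lowest adjusted p = 0.196). Photosynthetic genes summed to 4262 to 9789 on synergid arrays and 6194 to 12025 on antipodal arrays. Most of this sum came from CAB2R, at a log2 fold change of -0.65. On their brightest probe sets LHCP and rbcS stood at 0.0096 and 0.016, and RBCS1 was too dim to be tested. The part of such tissues in the results below was not tested. In whole-array data of isolated cells, fewer cells of a type and less RNA per cell cannot be told apart.

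None of the 32 genes passed the test between synergids and antipodals. All 32 passed the filter on dim probe sets, and limma called 0 of them at an adjusted p under 0.05, where it called 0.318% of all 34316 tested probe sets (109, of which 0.256% higher and 0.0612% lower in synergids), so a count of 0 among 32 is no finding by itself. The size of the differences says more. Log2 fold changes, each the synergid minus the antipodal mean of log2(signal + 16), ran from -0.78 for RPS21 to 0.62 for RPL18, and 26 of the 32 lay within 0.5 of 0. On the brightest probe set of each gene, no member differed by 2-fold or more, against 19.8% of all tested probe sets. On these, 0 of 32 had an unadjusted p under 0.05, against 8.30% of all, and the lowest adjusted p was 0.617. The shares over all count every probe set. Among all 52 member probe sets, 3 had such an unadjusted p, and dimmer ones of RPS21, RPS3A and eIF4G differed by more than 2-fold. The members were also bright and steady: their median signal lay between 10178 and 18462 on the 6 arrays, and the median residual SD of their log2 values was 0.39, against 0.72 over all tested probe sets. Dim probe sets vary more in such data, and the part of brightness in the low counts was not tested.

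The intervals show which differences these arrays could not see. The 95% intervals of the log2 fold changes had half-widths from 0.61 to 1.16, with a median of 0.73, and all 32 included 0. For 19 members the whole interval, on the brightest probe set, lay within 1 log2 unit of 0. A 2-fold difference in either direction thus lay outside it. Dimmer probe sets of some of these genes had intervals that reached further, such as RPS3A (-3.29 to -0.15) and RPS4 (-0.11 to 1.96). The intervals also hold only for the deposited scale, since centring each array on its median moves all values up by 0.45. For the other 13 a 2-fold difference in at least one direction was inside the interval, and a missed threshold does not show that their levels are alike.

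**Figure D1:**
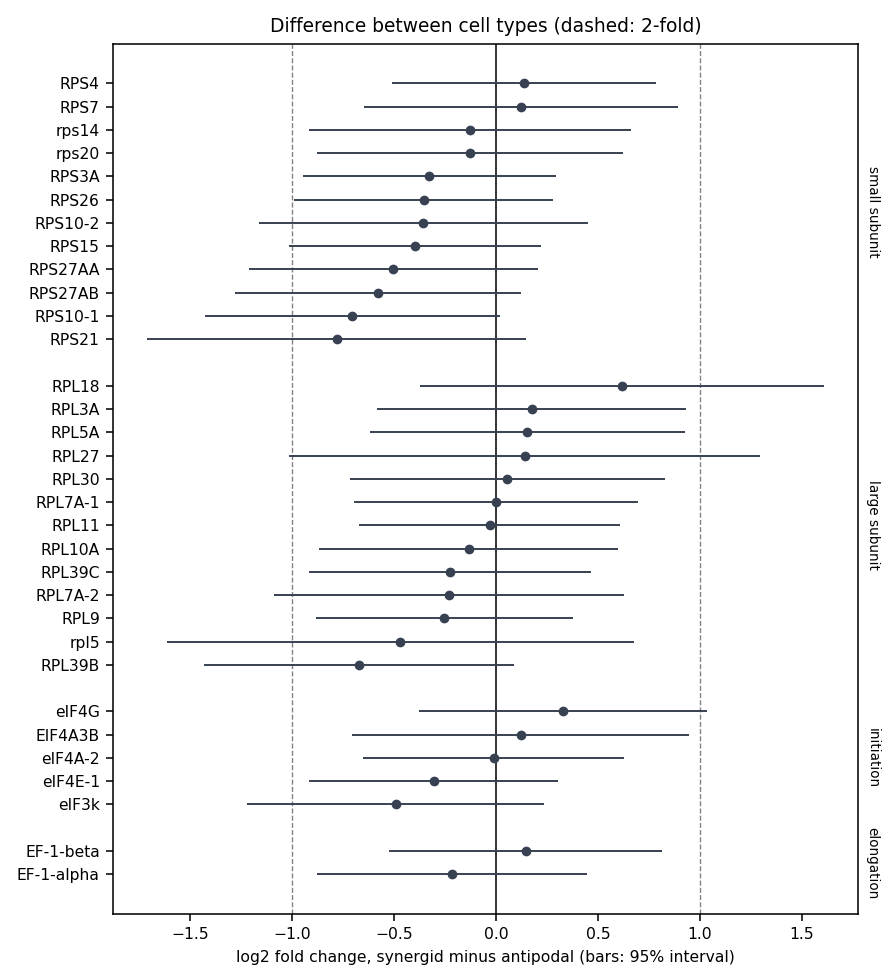
Log2 fold change of each of the 32 genes, synergid minus antipodal, on the horizontal axis, with its 95% interval from limma as a bar (3 arrays of each cell type). Genes are grouped by role and ordered by fold change, and dashed lines mark a 2-fold difference. All points lie between -0.78 and 0.62 and all bars cross 0.

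Among the 12 small-subunit genes, each on its brightest probe set, the values leaned to the antipodal side, though none passed the test. Probe sets of RPS21, RPS3A and rps20 lay on both sides of 0, as given below. The 12 include rps14, whose probe sets can also read another product. The log2 fold change was below 0 for 10 and above 0 for 2, with a median of -0.35, against -0.08 over all tested probe sets, of which 45.3% lay above 0. The median was -0.25 without antipodal array 2, with 10 genes again below 0, and from -0.46 to -0.26 when another array was left out. Its distance below all probe sets was less steady, from 0.11 without antipodal array 3 to 0.38 without synergid array 1. With no filter on dim probe sets it was 0.16. Centring each array on its median signal moved all probe sets up, from a median of -0.08 to 0.37, and the small-subunit median with them, to 0.091. Because that shift is common to all probe sets, the median lay 0.27 below that of all probe sets both before and after it. Quantile normalisation gave -0.16, with 10 of 12 below 0, which was 0.21 below all probe sets.

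RPS21 (LOC4332813), a small protein of the small subunit, had the lowest fold change. Its signals were 42740.2, 61644 and 55504 on synergid arrays 1 to 3, against 66173, 208806 and 53570.3 on antipodal arrays 1 to 3. One value, that of antipodal array 2, was more than 3 times any other, and the groups overlapped. That gave a log2 fold change of -0.78 (SE 0.43, adjusted p = 0.677), and -0.18 without antipodal array 2.

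RPS10-1 (LOC4329619) had 2714, 2344 and 2084 in synergids, against 2938, 5386 and 3649 in antipodals. Its groups did not overlap, and antipodal array 2 was again the highest. Its log2 fold change was -0.70 (SE 0.34, 95% interval -1.43 to 0.019), the member nearest to the threshold with an adjusted p of 0.617, and -0.47 without antipodal array 2. Its paralogue RPS10-2 (LOC4335865) had 6609.8, 11062 and 7151 in synergids, against 8479.5, 7104 and 18210.4 in antipodals, with overlapping groups (log2 fold change -0.36, adjusted p = 0.842). Here antipodal array 3 and not array 2 was the high one, and without antipodal array 3 the log2 fold change was 0.054.

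RPS27AA (LOC4326977) and RPS27AB (LOC4337883) encode proteins that, as in other eukaryotes, are made fused to ubiquitin and cut free of it. RPS27AA had 37586, 41642 and 39759 in synergids, against 53284, 85676 and 38749 in antipodals. RPS27AB had 19583, 23153 and 19076 in synergids, against 22976, 47229 and 26443 in antipodals. Both overlapped between cell types and both were highest on antipodal array 2. Their log2 fold changes were -0.50 and -0.58 (adjusted p = 0.733 and 0.684), and -0.20 and -0.26 without that array. Like the pairs of RPS10, RPL7A and RPL39 genes, these copies may share signal.

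RPS15 (LOC4342580), RPS26 (LOC4327570) and RPS3A (LOC4331966) had tighter replicates. RPS15, which in other eukaryotes lies near the decoding site, had 19365, 16010.0 and 16974 in synergids, against 19289, 24061 and 25888 in antipodals, a log2 fold change of -0.40 (SE 0.29, adjusted p = 0.758). Only synergid array 1 reached above an antipodal array. RPS26, which in yeast lines the channel where messenger RNA leaves, had 7383, 6552 and 6896 in synergids, against 8369, 7582 and 10975 in antipodals, with no overlap (log2 fold change -0.35, SE 0.30, adjusted p = 0.794). RPS3A had 32652, 40468 and 36324 in synergids, against 39354, 51348 and 46838 in antipodals, a log2 fold change of -0.33 (SE 0.29, adjusted p = 0.806). For each of the 3 the fold change stayed below 0 whichever array was left out. After median centring the values were 0.049, 0.093 and 0.12, all below the median of 0.37 over all probe sets there.

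The remaining small-subunit genes lay close to 0. RPS4 (LOC4328016) had 17526, 27056 and 21418 in synergids, against 18109, 17492 and 24042 in antipodals (log2 fold change 0.14). RPS7 (LOC4338485) had 4948, 11533 and 5768 in synergids, against 5168, 6208 and 7927 in antipodals (0.12). Both overlapped fully, and synergid array 2 was the high array for each. The gene rps20 (LOC4340027), written in lower case, had 6448, 15474 and 7154 in synergids, against 9049, 10058 and 10216 in antipodals (-0.13), with synergid array 2 again above all others. The tables do not say whether rps20 belongs to the cytosolic or an organellar ribosome.

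The gene listed as rps14 (LOC4344541) also carries the synonyms SDH2-1 and sdhB, names of the iron-sulphur subunit of succinate dehydrogenase. In rice the mitochondrial rps14 sequence is known to have moved into this nuclear gene, so its probe sets can read either product. The brightest had 7834, 4078 and 4405 in synergids, against 8757, 4167 and 5017 in antipodals, at -0.13 on the log2 scale (adjusted p = 0.948). Array 1 of each cell type was the high one, and the groups overlapped. Its values on the 6 arrays thus ran differently from most ribosomal members, which were low on synergid array 1.

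**Figure D2:**
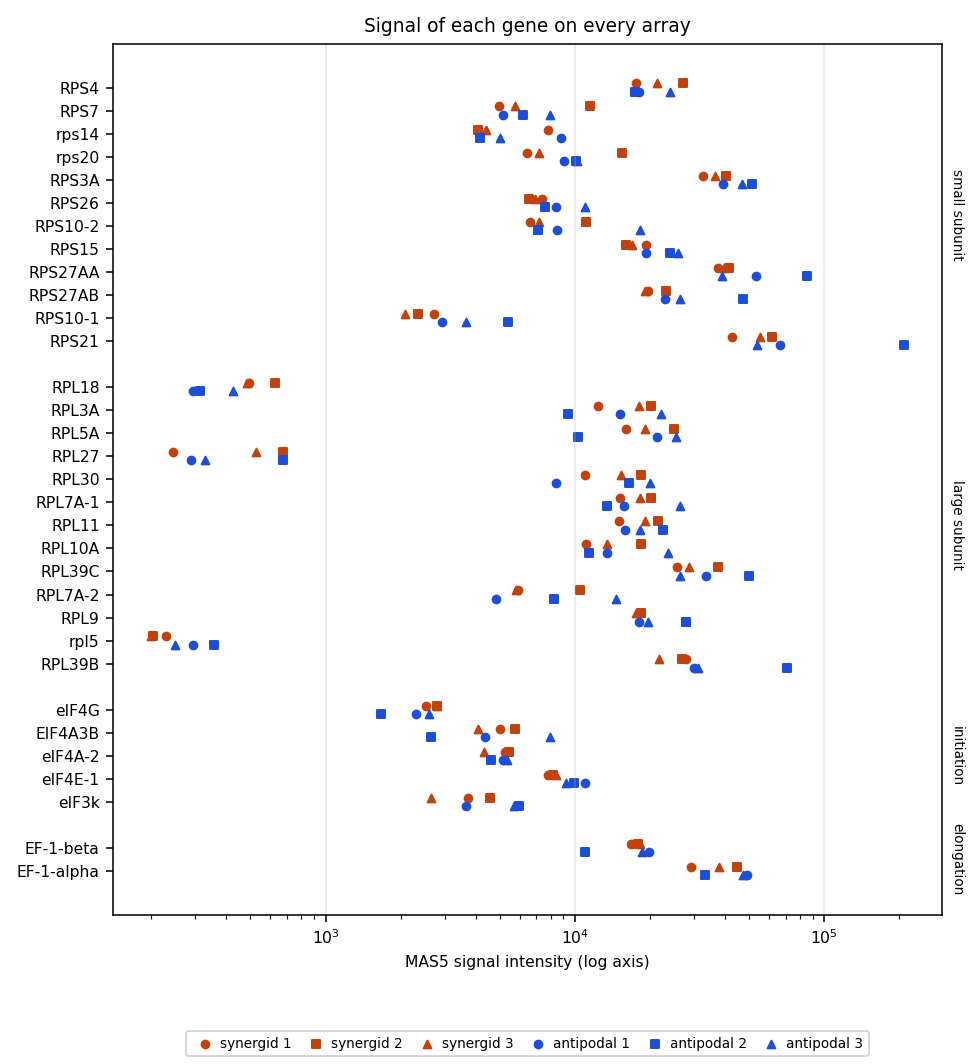
MAS5 signal (log axis) of each of the 32 genes on every array, synergid arrays in orange and antipodal arrays in blue just below, with the marker shape giving the replicate number. RPL18, RPL27 and rpl5 lie between 199.5 and 678, and the 29 other genes lie above 1000 on every array.

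The 13 large-subunit genes showed no common lean. The log2 fold change was above 0 for 5 and below 0 for 8, with a median of -0.031. That was 0.049 above the median of all probe sets, a gap that median centring cannot change. Quantile normalisation put 8 of the 13 above 0. When 1 array was left out the median ran from -0.23 to 0.17.

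RPL39B (LOC4331014), a very small protein that in yeast lines the exit tunnel, had the lowest value of the large subunit. Its signals were 27999, 27000.1 and 21736 in synergids, against 29966, 71035 and 31122 in antipodals, and the groups did not overlap. As for RPS21, antipodal array 2 was far above the others. The log2 fold change was -0.67 (SE 0.36, 95% interval -1.43 to 0.091, adjusted p = 0.653), and -0.26 without that array. RPL39C (LOC9268459), its paralogue, had 25653, 37411 and 28710.0 in synergids, against 33556, 49820.0 and 26423 in antipodals, with overlap (log2 fold change -0.23, adjusted p = 0.887, and 0.021 without antipodal array 2). Copies of RPL39 are very alike, and the probe sets that stand for them carry suffixes for possible cross-hybridisation. Signal may thus be shared between them. The other probe set of RPL39B carries no such suffix and stood at -0.60.

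RPL18 (LOC4334651) had the highest fold change of all members and was the only 1 of the 32 with every synergid array above every antipodal array. Its signals were 492, 629 and 485 in synergids, against 295, 315 and 424 in antipodals, low values among the members. Its log2 fold change was 0.62 (SE 0.46, 95% interval -0.37 to 1.61, adjusted p = 0.765). At the other end of the dim genes, rpl5 (LOC4331459) had 229, 203 and 199.5 in synergids, against 294, 357 and 248 in antipodals, also with no overlap (-0.47, SE 0.54, adjusted p = 0.854). RPL18 and RPL27 carry the synonyms CL18 and CL27, a form of name used for chloroplast ribosomal proteins, and rpl5 is written in lower case; the tables do not say which ribosome these 3 nuclear genes serve. The remaining dim gene, RPL27 (LOC4327257), had 243, 678 and 524 in synergids, against 289, 676 and 328 in antipodals. Array 2 of both cell types was the high one for RPL27, the groups overlapped fully (log2 fold change 0.14, adjusted p = 0.964), and its replicates were among the least alike.

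RPL5A and RPL11 encode the proteins that bind 5S ribosomal RNA together, and RPL3A a protein next to the site where the peptide bond forms. RPL5A (LOC4325100) had 16094, 25005 and 19083 in synergids, against 21323, 10297 and 25401 in antipodals, at 0.15 on the log2 scale (adjusted p = 0.935). RPL3A (LOC4351604) had 12436, 20262 and 18046 in synergids, against 15175, 9399 and 22121 in antipodals (0.18, adjusted p = 0.925). Both were lowest on antipodal array 2, and without it both values were below 0, at -0.24 and -0.15. RPL11 (LOC4338077) had 15003, 21465 and 19022 in synergids, against 15811, 22579 and 18303 in antipodals, overlapping in full (-0.031, adjusted p = 0.986).

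RPL7A-1, listed in the tables under that symbol, was the member with the smallest difference. It had 15126, 20211 and 18166 in synergids, against 15683, 13396 and 26439.9 in antipodals, and a log2 fold change of -0.00019 (95% interval -0.70 to 0.69). Its paralogue RPL7A-2 (LOC4347522) had 5915, 10507 and 5805 in synergids, against 4812, 8269 and 14602 in antipodals (-0.23, adjusted p = 0.911). Both were highest on antipodal array 3, RPL7A-2 at about 3 times its value on antipodal array 1.

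RPL9 (LOC4347422) had 18171, 18376 and 17566 in synergids, against 18156, 27840.4 and 19596 in antipodals, at -0.25 on the log2 scale (adjusted p = 0.859). The synergid arrays were nearly equal, antipodal array 2 was the high one, and without it the value was -0.065. RPL30 (LOC4324441) had mean signals of 14958 ± 3754 in synergids, against 14982 ± 5954 in antipodals (SD, n = 3 each), a log2 fold change of 0.056. RPL10A (LOC9266191), of the mobile stalk beside the exit site, had 14306 ± 3753 in synergids, against 16140.0 ± 6513 in antipodals (SD, n = 3 each), a log2 fold change of -0.13. In both genes the difference of the means was smaller than either SD.

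Initiation factors had the smallest median residual SD of the 4 roles. The log2 fold change was above 0 for 2 of 5 and below 0 for 3, with a median of -0.011, and that SD was 0.24. eIF4E-1 (LOC4323837), which binds the cap of messenger RNA, had 7777, 8180.4 and 8405 in synergids, against 10960.3, 9956 and 9219.8 in antipodals. All 3 synergid arrays lay below all 3 antipodal arrays, and the residual SD of 0.097 was the smallest of any member. The difference was 1.23-fold towards antipodals (log2 fold change -0.30, SE 0.29, adjusted p = 0.818). The SE is larger than these replicates alone would give because limma draws each probe set's variance towards that of others of like signal. The value was -0.31 without antipodal array 2, and after median centring it was 0.14, below the 0.37 of all probe sets.

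eIF4A-2 (LOC4328286), the helicase of the cap-binding complex, had 5228, 5462 and 4323 in synergids, against 5134, 4588 and 5358 in antipodals. No array stood apart, and the means, 5004 ± 602 in synergids, against 5027 ± 396 in antipodals (SD, n = 3 each), were closer than either SD (log2 fold change -0.011, 95% interval -0.65 to 0.63). The related gene with the synonym eIF-4A-1 (LOC4341966), outside the rule by its spelling, stood at -0.077 (adjusted p = 0.969). EIF4A3B (LOC4333273), of the same helicase family but a core part of the exon junction complex left on spliced messenger RNA, had 5010.5, 5777 and 4089 in synergids, against 4369, 2647 and 7941 in antipodals. Its antipodal arrays lay on both sides of all synergid arrays (0.12, adjusted p = 0.953).

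eIF3k (LOC4331842), a subunit of the large factor eIF3, had the lowest value of this role. It had 3713, 4581 and 2641 in synergids, against 3666, 5983 and 5709 in antipodals, with overlap at antipodal array 1 (log2 fold change -0.49, SE 0.34, adjusted p = 0.743). eIF4G (LOC4343565), the scaffold of the cap-binding complex, had 2535, 2802 and 2789 in synergids, against 2309, 1664 and 2594 in antipodals on its brightest probe set. Only antipodal array 3 reached into the synergid values (0.33, SE 0.33, adjusted p = 0.830). Antipodal array 2 was the low one, and without it the value was 0.14.

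The elongation factors lay on both sides of 0. EF-1-beta (LOC4344188), which reloads EF-1-alpha with GTP, had 16715, 17951 and 18285 in synergids, against 19762, 11005 and 18622 in antipodals, at 0.15 on the log2 scale (adjusted p = 0.928). Antipodal array 2 was the low one, and without it the value was -0.12. EF-1-alpha (LOC4331810) had 29196, 44842 and 37694 in synergids, against 48979.7, 33327 and 47147 in antipodals, with overlap (-0.21, SE 0.31, adjusted p = 0.890).

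EF-1-alpha also shows how much the choice of probe set can matter. Its second probe set had 16393, 26644 and 16389.8 in synergids, against 15190.4, 5095 and 20881 in antipodals, and a log2 fold change of 0.71 (adjusted p = 0.713). Another 4 probe sets were paired with this gene and its copies LOC4331811, LOC4331812 and LOC4331813, and are not counted as members. Of these, 3 had signals of 17543 to 47208 on the synergid arrays, against 17214 to 45690.1 on antipodal arrays 1 and 3 and only 2853 to 6573 on antipodal array 2, with log2 fold changes from 0.73 to 1.03 (adjusted p = 0.696 to 0.770). The last had 1416 to 3122 in synergids, against 3112 to 3626 in antipodals, with a log2 fold change of -0.68 (adjusted p = 0.650). Antipodal array 2 was thus the lowest array for 4 of these 6 probe sets, and without it the fold change of the representing probe set was -0.39. Affymetrix control probe sets named ef1a were not tested and were dim, with mean signals of 17.1 to 63.4 per cell type. On the control ef1a-5, antipodal array 2 was the highest array, at 115.

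**Figure D3:**
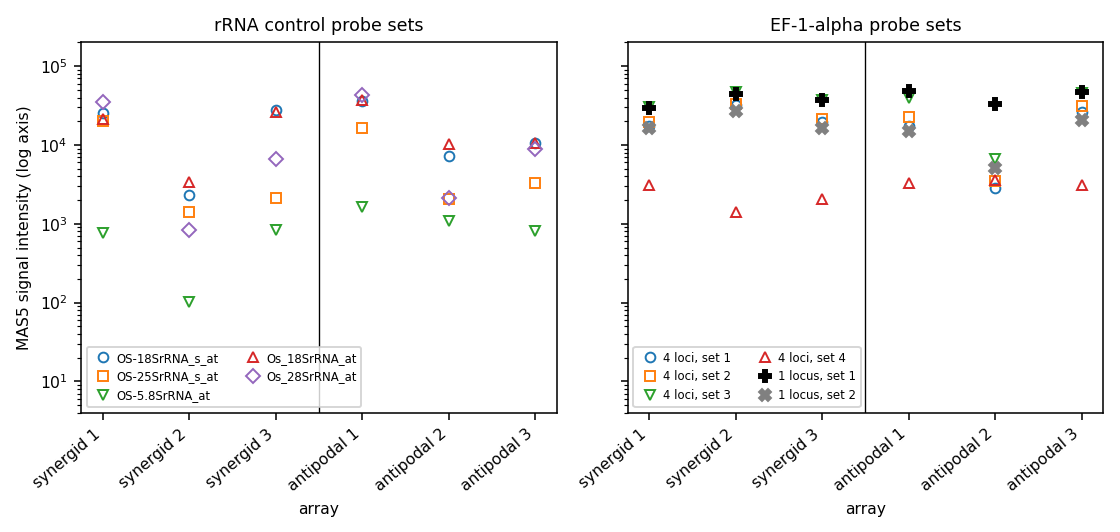
MAS5 signal (log axis) on each array of the 5 control probe sets for ribosomal RNA (left) and of the 6 non-control probe sets that read EF-1-alpha genes (right, 4 shared by 4 loci and 2 paired with LOC4331810 alone). The 3 synergid arrays are left of the line and the 3 antipodal arrays right of it. On the left, synergid array 2 is lowest for every control; on the right, 4 of 6 probe sets drop on antipodal array 2.

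The arrays carry 5 control probe sets for ribosomal RNA, which limma did not test. Their signals were far less steady between arrays than those of the brightest probe sets of the protein genes. How far these signals follow the ribosomal RNA content of the cells was not tested. The 18S control with the suffix _s_at had signals of 25134, 2347 and 27482 in synergids, against 35965, 7206 and 10568 in antipodals. The 28S control had 35467, 827 and 6680.3 in synergids, against 42463, 2128 and 8910.3 in antipodals. Synergid array 2 was the lowest array for all 5 controls, and the highest signal of a control was 11.05 to 51.4 times its lowest. Mean signals overlapped between cell types for both, at 18321 ± 13884 and 14325 ± 18542 in synergids, against 17913 ± 15724 and 17834 ± 21597 in antipodals (SD, n = 3 each). On its brightest probe set no ribosomal protein member had so wide a range, though a dimmer one of RPL10A ran from 80.9 to 1740. Synergid array 2 was above the 6-array mean for 10 of 13 large-subunit and 4 of 12 small-subunit genes.

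Each value can be set against the gene's own mean over the 6 arrays, on the log2 scale. Synergid array 1 was the low one, with a median deviation of -0.23 over the 32 members and 5 of them above their mean, against -0.076 over all tested probe sets. Synergid array 3 was low as well, at -0.19 with 10 members above their mean, against 0.065 over all tested probe sets. Synergid array 2 and antipodal array 3 were the high ones, at 0.19 and 0.18, with 20 and 22 members above their mean. Synergid arrays 1 and 3 were the highest array for 0 of the 32 members, and antipodal array 3 was the lowest for 0. Over all tested probe sets these arrays were the highest for 6.26% and 13.2% and the lowest for 15.6%.

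Antipodal array 2 split the members, as it split all tested probe sets. It was the highest array for 11 of the 32 members and the lowest for 7. It was high by 1.60 log2 units for RPS21, 1.15 for RPL39B, 0.91 for RPS27AB, 0.86 for RPS27AA and 0.83 for RPS10-1. It was low by -0.86 for RPL5A, -0.83 for EIF4A3B, -0.73 for RPL3A, -0.61 for EF-1-beta and -0.53 for eIF4G. The 4 lowest fold changes among small-subunit genes thus belonged to the 4 of its genes that were highest on this array, and RPL39B repeats that in the large subunit. Over all tested probe sets this array was the highest for 39.0% and the lowest for 21.9%. The shares among members are near these, so the split is no result about the members.

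**Figure D4:**
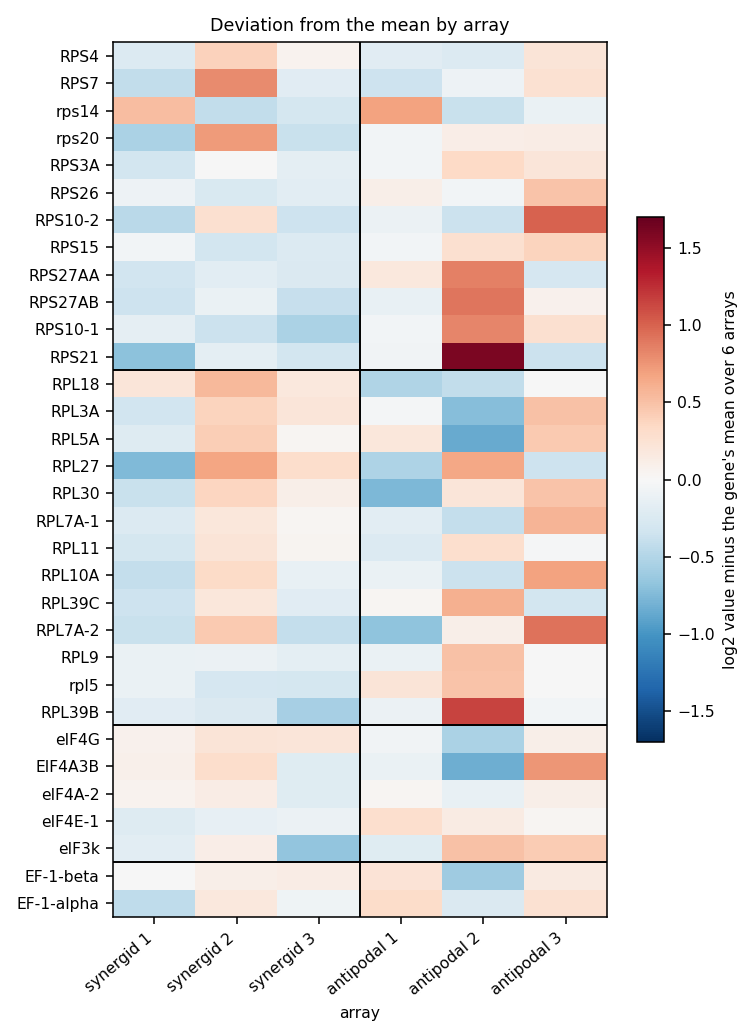
Deviation of each gene's log2(signal + 16) from its own mean over 6 arrays (colour, red above and blue below), with the 3 synergid arrays left of the vertical line and the 3 antipodal arrays right of it. Rows are grouped by role and ordered by fold change. Antipodal array 2 holds both the deepest red (RPS21, 1.60) and the deepest blue (RPL5A, -0.86).

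Groups that did not overlap were found for 6 of the 32 members, RPL18 with synergids above and RPS10-1, RPS26, RPL39B, rpl5 and eIF4E-1 with synergids below. That is 18.8%, near the 13.4% of all tested probe sets whose groups did not overlap (6.17% with synergids above and 7.26% below), and is no result about the members.

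For 10 members more than 1 probe set was paired with the gene alone, and the probe sets of 6 of these genes lay on both sides of 0. None of the 52 probe sets was called, and 3 had an unadjusted p under 0.05. RPS21 spanned the most. Beside the bright probe set described above, a second had 1595, 748 and 554 in synergids, against 2026, 2896 and 2973 in antipodals, with no overlap and a log2 fold change of -1.55 (SE 0.42, adjusted p = 0.232), the lowest adjusted p of any member probe set. The remaining one had 1565, 3643 and 3005 in synergids, against 1523, 473 and 1932 in antipodals, and 1.19 (adjusted p = 0.553). The gene thus has readings on both sides of 0, and no single direction can be given for it.

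RPS3A was read by 4 probe sets, with log2 fold changes of -0.33, 0.41, 0.37 and -1.72. The last came from a dim set with 86.95, 16.9 and 179.0 in synergids, against 309, 289 and 223 in antipodals (adjusted p = 0.562). eIF4G also had 4, with 0.33 on the brightest and -1.08, -1.66 and -0.11 on the others. On the one at -1.08, synergid array 1 stood at 2377 and the other synergid arrays at 568 and 531, against 1337, 2299 and 2308 in antipodals (adjusted p = 0.616). Both probe sets of RPL39B agreed within 0.1, at -0.67 and -0.60, and both of RPL10A were below 0, at -0.13 and -0.48. All 4 of rps14 were below 0, from -0.75 to -0.053, and both of RPS4 were above it, at 0.14 and 0.93. Those of RPL27 ran from -0.35 to 0.99, and those of rps20 from -0.25 to 0.68.

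**Figure D5:**
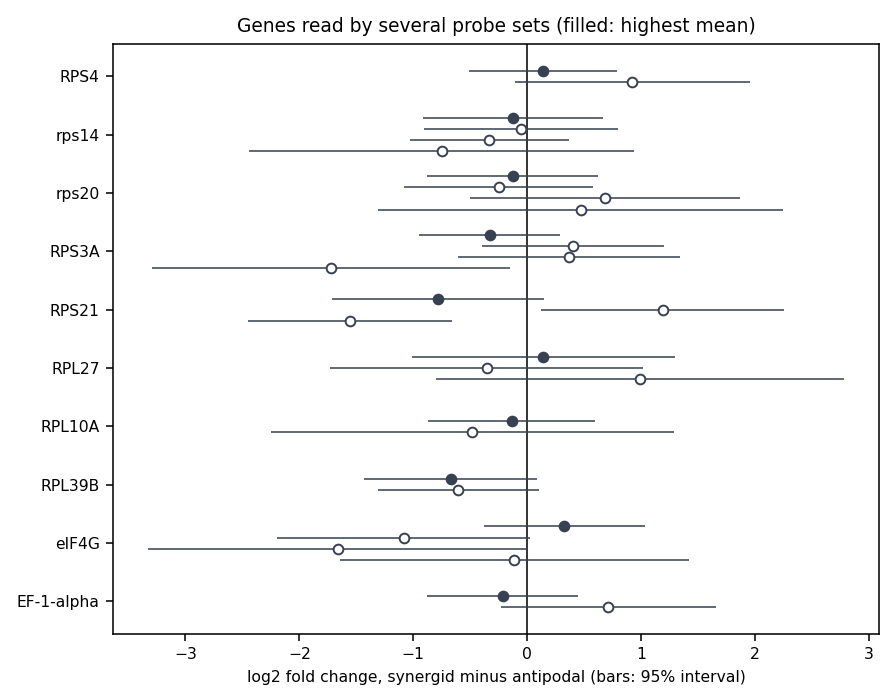
Log2 fold change, synergid minus antipodal, of every probe set of the 10 genes with more than 1, with 95% intervals as bars. The filled point is the probe set with the highest mean, which stands for the gene. RPS21, RPS3A, rps20, RPL27, eIF4G and EF-1-alpha have points on both sides of 0.

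Other genes of protein synthesis were also taken by name. Of 5 that signal to the ribosome or bind it or its messenger, 0 were called, and all 5 had log2 fold changes below 0, from -0.49 to -0.17. These were RACK1A (LOC4324115) and RACK1B (LOC4339539), scaffold proteins on the small subunit, at -0.17 and -0.19, PAB1 (LOC4333000), a poly(A)-binding protein, at -0.38, LST8 (LOC4333729), of the TOR kinase complex, at -0.32, and TCTP (LOC4351061) at -0.49 (adjusted p = 0.754 to 0.913). Their median of -0.32 lay 0.24 below that of all probe sets. Median centring moves all alike and cannot change that gap, and it put 4 of the 5 above 0. Quantile normalisation put 1 above 0. For PAB1 and TCTP, other probe sets of the gene reached 0.0031 and 0.42. RACK1A had 8022, 10699.9 and 9317 in synergids, against 7856, 10914 and 13387 in antipodals. Of 3 aminoacyl-tRNA synthetases, LysRS, HisRS and MetRS, which load transfer RNA, 0 were called, with log2 fold changes of 0.36, 0.31 and -0.17, a median of 0.31 that was -0.26 without antipodal array 2. The list of ribosome making held RH10 (LOC4333678), a helicase of ribosomal RNA processing, at -0.46 (adjusted p = 0.746) on its brightest probe set. Its other probe sets stood at -0.11 and at 2.11 (adjusted p = 0.599), the latter with a signal of 12.9 on antipodal array 2. The list also held the synonym FIB, which here names the auxin synthesis gene TAR2 and not fibrillarin. The lists of release factors and organellar translation matched no gene with a probe set.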

How the data were processed

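Total RNA of 6 samples was amplified in 2 cycles, labelled with biotin and hybridised to Affymetrix rice arrays, per the labels' protocols. Egg cells and zygotes are what the labelling text mentions, so the number of cells per array is not known here. The authors deposited a table of signal intensities of 57381 probe sets, made with GCOS 2.0 and MAS5, per the submitters' processing notes; no genome build is named. Of these, 123 Affymetrix control and 64 reporter probe sets were left out. No column was left unused.

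Signals were transformed to log2(signal + 16) without further scaling, and the dimmest 40% by mean (below a signal of 36.8) were left out, leaving 34316. R 4.3.3 and limma 3.58.1 fitted cell type alone (lmFit, and eBayes with trend), with Benjamini-Hochberg adjustment over all 34316. A fold change on this scale understates that of dim probe sets. The test was tried on simulated data first. With 3 arrays a group, the number of arrays limits the precision.

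Genes were named from the platform annotation of the probe sets and from RefSeq synonyms (assembly ASM3414082v1). Exactly 1 gene was paired with 22436 probe sets, several with 95, and 34663 had no gene named here. A gene with several probe sets stands under the one with the highest mean. All 32 members are named: by the rule, every initiation and elongation factor and, per ribosomal subunit, the 4 highest and 4 lowest fold changes have values per array; the others were added after their values were seen. The members and lists were chosen with earlier results of these data known. No sequence is printed and no coordinates are given. The labels do not say that the replicate numbers pair arrays, so the numbers were not taken as pairs. Same-numbered arrays deviated from their group means with correlations of 0.22, 0.12 and 0.020, against -0.15 to 0.022 for differently numbered ones. Arrays 1 and 2 may thus share something by number, and a fit with the replicate number as a block is among the alternatives. Alternatives covered the pseudocount, filter, scaling, variance model, array weights, blocks and each array left out. Figures were drawn with matplotlib 3.10.9.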

Additional observations from a re-analysis of the deposited data

How the results depend on the processing

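No member was called in any of the 18 other settings, nor among all 52 member probe sets; over these settings and members the lowest adjusted p was 0.394. The members' median log2 fold change of -0.17 moved beyond their median residual SD only with median centring, to 0.27. The median of all tested probe sets moved there from -0.08 to 0.37. The members lay 0.093 below all probe sets in both, since that shift is common to all. Over the left-out arrays the members' median ran from -0.31 to -0.070. The number of probe sets called among all tested, 109, was 31 without an intensity trend, 193 with array weights, 293 with the replicate number as a block, 284 with the number format of the deposited column as a block (at most 9 digits on array 1 of each cell type and 10 on the others), 458 within the longer format, 235 with high against low poly-A control signal as a block, and 42 to 317 with 1 array left out. The replicate block changed no call among members. In deviations from the group means, synergid array 3 correlated at 0.022 with antipodal array 2 and at 0.020 with antipodal array 3. Within the longer format the members' median was -0.11.

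Of the 32 members, 9 kept the sign of their log2 fold change in all 18 settings and 23 did not; none of these was called. Leaving aside median centring, which moved all probe sets by 0.45 alike, 14 kept it and 18 did not. With median centring the turned values were EF-1-alpha 0.23, eIF4A-2 0.44, eIF4E-1 0.14, RPL7A-1 0.45, RPL11 0.41, RPL10A 0.31, RPL39C 0.22, RPL7A-2 0.22, RPL9 0.19, rps14 0.32, rps20 0.32, RPS3A 0.12, RPS26 0.093, RPS10-2 0.090 and RPS15 0.049. With quantile normalisation they were RPL7A-1 0.023, RPL11 0.056 and RPL39C 0.0060. With array weights they were EF-1-beta -0.028, EIF4A3B -0.23, RPL3A -0.071, RPL5A -0.17, RPL11 0.036 and RPS7 -0.044. Within the longer format they were EF-1-alpha 0.053, RPL30 -0.11, RPL7A-1 0.026 and rps20 0.054. With the poly-A block they were eIF4A-2 0.014, RPL7A-1 0.091, RPL11 0.087, RPL10A 0.012, RPL7A-2 0.11 and rps20 0.10. With each array left out, 17 members had values on both sides of 0: RPL7A-1 -0.20 to 0.29, RPL11 -0.15 to 0.11, RPL10A -0.35 to 0.18, rps20 -0.52 to 0.11, RPL5A -0.24 to 0.41, RPL27 -0.16 to 0.55, RPL30 -0.31 to 0.31, RPS4 -0.022 to 0.29, RPS7 -0.25 to 0.36, rps14 -0.42 to 0.19, eIF4A-2 -0.077 to 0.091, EF-1-beta -0.12 to 0.30, EIF4A3B -0.26 to 0.53, RPL3A -0.15 to 0.47, RPL39C -0.44 to 0.021, RPL7A-2 -0.63 to 0.17 and RPS10-2 -0.62 to 0.054. The cause of these turns was not tested beyond the setting itself.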
